A study of Mus musculus with 6 samples.

Results

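Lysosomal genes were compared between macrophages of mice lacking Bach1 (Bach1 KO) and wild-type (WT) mice. The genes are 35 that encode lysosomal proteases, other acid hydrolases, cholesterol carriers, membrane proteins, subunits of the proton pump and the transcription factor Tfeb. They were chosen by name, and for each gene the probe with the highest mean signal was used. All 35 had a probe and passed the filter on dim probes, out of 15736 genes that passed it. The KO group was 3 mice labelled KO 947, 948 and 949, and the WT group 3 mice labelled WT 1, 2 and 3. All were C57BL/6 mice of 11 weeks, with 2 males and 1 female in each group, and each mouse gave 1 one-colour microarray. The labels name the mutant mice Bach1 KO and do not say how the gene was inactivated. In both groups macrophages were derived from bone marrow in culture for 5 days with 10 ng/mL GM-CSF, a cytokine that drives myeloid differentiation and also yields dendritic cells from marrow, and with 10% fetal bovine serum (37 °C, 5% CO2).

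Lysosomes are the acidic compartment in which macrophages digest what they engulf. The vacuolar ATPase pumps protons into the lumen, and cathepsins, glycosidases and lipid hydrolases work at the low pH that it maintains. In red cell disposal the same compartment takes hemoglobin apart before its heme is degraded. The transcription factor TFEB drives many lysosomal genes through an E-box in their promoters called the CLEAR element (coordinated lysosomal expression and regulation), whereas BACH1 is a heme-binding repressor that acts with small Maf proteins at antioxidant response and Maf recognition elements.

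Stretches of 6 promoters are shown because they carry the longer form of the TFEB E-box, TCACGTGA. RefSeq promoter windows (GRCm38.p6, 250 bases before to 50 bases after the annotated start) were at hand for 28 of the 35 genes. The core CACGTG was found in 12 of these 28 genes (42.9%), in 21.5% of the other lysosomal genes with a window and in 8.09% of all 27025 genes with a window. TCACGTGA, which contains the core, was found in 6 of the 28 (21.4%), in 9.35% of the other lysosomal genes and in 1.12% of all genes. Capitals mark TCACGTGA, and each stretch is printed in the direction of its gene.
Ctsa, chr2:164833744-164833800, plus strand: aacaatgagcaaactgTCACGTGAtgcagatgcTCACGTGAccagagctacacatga
Ctsd, chr7:142387903-142387942, minus strand: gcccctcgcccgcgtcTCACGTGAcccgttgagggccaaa
Gla, chrX:134601177-134601249, minus strand: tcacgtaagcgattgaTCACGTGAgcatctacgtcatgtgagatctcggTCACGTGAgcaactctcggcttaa
Mcoln1, chr8:3500457-3500496, plus strand: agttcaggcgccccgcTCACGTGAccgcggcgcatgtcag
Atp6v0d1, chr8:105566045-105566084, minus strand: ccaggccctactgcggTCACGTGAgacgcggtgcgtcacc
Atp6v1a, chr16:44139368-44139407, minus strand: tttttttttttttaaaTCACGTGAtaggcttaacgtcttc
Ctsa and Gla each hold it at 2 places, and in Ctsa these begin 13 bases before and 4 bases after the annotated start. The form with a further G before and C after it was in none of the 28 genes and in 0.37% of all genes. All motifs were searched on both strands. TCACGTGA followed by C holds the first 4 letters of TGACNNNGC, so the 2 can share bases. The Maf recognition element, TGCTGA followed by any base and TCA, was in none of the 28 genes and in 0.492% of all genes, and TGACNNNGC, the core of the antioxidant response element, was in 6 of the 28 (21.4%) and in 14.0% of all genes. A match to these letters does not show that a factor binds there.

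**Figure D1:**
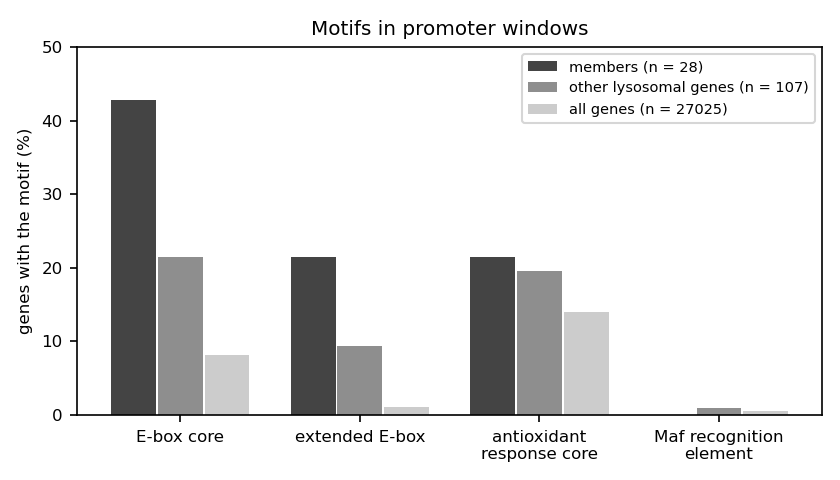
Share of genes (%) with each motif in a promoter window, on either strand, for the 28 lysosomal genes studied here, the other lysosomal genes and all 27025 genes. The E-box core stands at 42.9%, 21.5% and 8.09%, and the antioxidant response core at 21.4%, 19.6% and 14.0%.

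Levels below are log2 processed signal in relation to the array's 75th percentile, and differences are KO minus WT on the log2 scale. Levels of different genes are not compared, since they rest on different probes. Between 62.5% and 65.1% of spots on the KO arrays were well above background, and between 70.3% and 73.2% on the WT arrays, and no spot was saturated. The WT arrays shared their slide with KO 947, whereas KO 948 and 949 were together on a second one. The Bach1 probe read 1.45, 2.00 and 2.23 in KO 947, 948 and 949, against 2.21, 2.48 and 2.59 in WT 1, 2 and 3. Where that probe lies relative to the inactivated part of the gene is unknown here, and it therefore checks no label. Hmox1, the heme oxygenase gene that BACH1 represses, read 7.37 to 7.55 in KO cells against 4.99 to 5.83 in WT cells and rose by 2.14 ± 0.25 (SE, n = 3 mice per genotype, limma adjusted p = 0.0114, but 0.0518 without WT 1 and 0.0739 with the slide as a fixed block). Of the macrophage markers, all 8 measured were well above background on every array, with a summed level of 368 to 401 in KO against 345 to 392 in WT. Of these, 5 were higher and 3 lower in KO, and none passed the limma test. The KO arrays all lay above the WT arrays in 3 of them and below in 1. Dendritic cell markers were also present, with sums of 309 to 358 in KO against 413 to 506 in WT. All 12 measured were lower in KO, 5 of them past the limma test, where 2.27% of all genes were called lower. In 10 of the 12 the KO arrays all lay below the WT arrays, against 13.4% of all genes. Markers of eosinophils, mast cells and basophils summed to 1.16 to 18.5 in KO against 21.9 to 51.8 in WT, with all 8 measured lower in KO and 3 of them past the test. Their part in the values of the lysosomal genes was not tested.

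None of the 35 lysosomal genes passed the limma test of KO against WT at a Benjamini-Hochberg adjusted p under 0.05, where 3.41% of all genes tested did (537 of 15736). Counted at an unadjusted p under 0.05 there were 2 of 35, Asah1 and Lamp2, both higher in KO, where 20.4% of all genes had such a p and 8.87% had it with a higher level in KO. Of the 35 differences 24 were above 0 and 11 below, with a median of 0.072. Over all genes tested 7742 of 15736 were above 0, with a median of -0.0062. The brightest 20% of these by mean probe signal held 26 of the 35. There 1838 of 3148 were above 0, with a median of 0.049. Of these 3148 genes, 23 passed the limma test with a higher and 17 with a lower level in KO. An unadjusted p under 0.05 was found for 337 of them, 247 with a higher level in KO. In 7 of the 35 genes the KO arrays all lay on 1 side of the WT arrays, 6 above and 1 below, and 26.8% of all genes did so (13.4% in each direction). Among the 3148 brightest genes they lay above in 527 and below in 205. With 1 probe per gene, the differences ran from -0.33 for Ctsk to 0.63 for Asah1, and a dimmer Ctsd probe that was not used stood at 0.77. The 95% interval of the difference, not adjusted for the number of genes, lay within a 2-fold change either way in 34 of the 35. It did so in 68.0% of all genes tested and in 93.0% of the brightest 20%. Its half-width had a median of 0.40 over the 35 genes and of 0.39 over the brightest 20%. In a bulk culture, fewer cells of a type and less RNA per cell cannot be told apart.

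**Figure D2:**
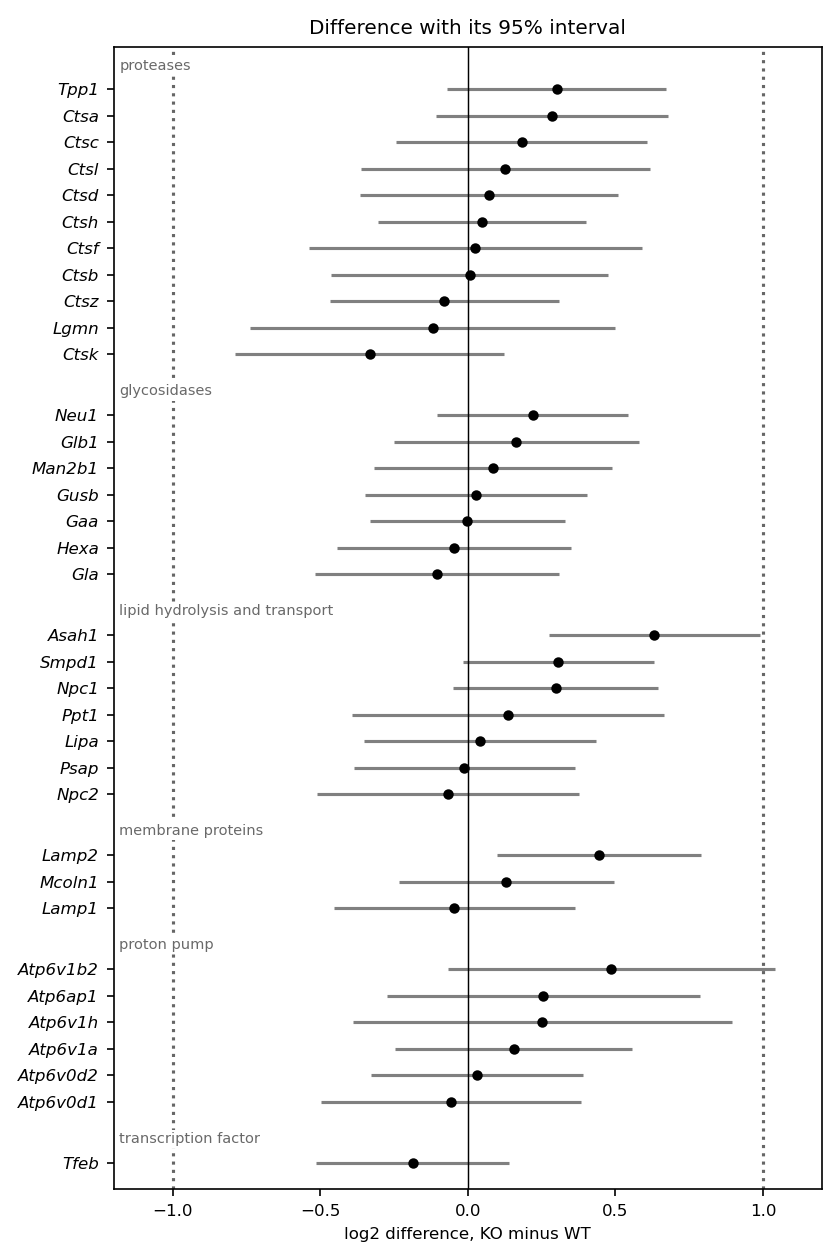
Difference in log2 level, KO minus WT (x axis), of each lysosomal gene (rows, grouped by role), with points for the limma estimate and lines for its 95% interval (n = 3 mice per genotype). Dotted lines mark a 2-fold change, and the interval of Atp6v1b2 alone crosses one, at 1.04.

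None of the 11 protease genes passed the test, and their median difference was 0.047, with 8 above 0 and 3 below. Ctsb, a cysteine cathepsin with both endopeptidase and carboxypeptidase activity, read 7.37, 7.44 and 7.60 in KO 947, 948 and 949, against 7.79, 7.44 and 7.16 in WT 1, 2 and 3. The KO values lay inside the range of the WT values, and the difference was 0.0059 ± 0.20 (SE, 95% interval -0.46 to 0.48). Ctsd, the main aspartic protease of the lysosome, read 7.39, 7.33 and 7.47 in KO cells, against 7.64, 7.27 and 7.07 in WT cells, a difference of 0.072 ± 0.18. Its dimmer second probe read 4.43, 4.11 and 3.65 in KO cells, against 3.45, 3.57 and 2.86 in WT cells, with no overlap and a difference of 0.77 ± 0.28 (limma adjusted p = 0.229 over all probes). The probes thus gave different sizes for the same gene. Ctsl, a cysteine endopeptidase, read 7.20, 7.29 and 7.47 in KO cells, against 7.42, 7.35 and 6.80 in WT cells. WT 3 was the lowest of the 6 arrays for Ctsb, Ctsd and Ctsl.

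Other peptidases gave similarly small differences. The aminopeptidase gene Ctsh differed by 0.047, and the carboxypeptidase gene Ctsz by -0.080. Ctsf differed by 0.025, with the widest interval among the papain-like cathepsins (-0.54 to 0.59). Ctsc, the dipeptidyl peptidase that activates serine proteases of leukocyte granules, differed by 0.18 ± 0.18. Lgmn, the asparaginyl endopeptidase that processes several cathepsins, spread widely among KO arrays, at 5.54, 5.94 and 6.45, against 6.15, 6.29 and 5.85 in WT 1, 2 and 3. Its difference was -0.12 ± 0.26.

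At the ends of the protease class stood Ctsk, Ctsa and Tpp1. Ctsk, the collagen-degrading cathepsin known from osteoclasts and also made by fibroblasts, read 3.37, 3.07 and 3.63 in KO 947, 948 and 949, against 3.50, 3.74 and 3.82 in WT 1, 2 and 3, and the groups overlapped (-0.33 ± 0.19, adjusted p = 0.381). The stromal marker list stood beside it with a summed level of 4.43 to 6.50 in KO against 11.9 to 44.8 in WT, all 9 measured members lower and 3 of them past the test, and its part in the Ctsk values was not tested. The summed level of the osteoclast marker list overlapped between genotypes, at 132 to 152 in KO against 142 to 172 in WT. Of its 8 measured members 5 were higher and 3 lower in KO, and none passed the test. Dcstamp (-0.60 ± 0.16, limma adjusted p = 0.0967) and Itgb3 (-0.64 ± 0.27, limma adjusted p = 0.247) were lower in KO without overlap. No member was higher without overlap, and the part of this list in the Ctsk values was not tested either. Calcr, the calcitonin receptor that marks mature osteoclasts, was not well above background on any array. Ctsa, the carboxypeptidase that protects beta-galactosidase and sialidase in the lysosome, read 6.62, 6.58 and 6.67 in KO cells, against 6.61, 6.19 and 6.22 in WT cells (0.29 ± 0.17, adjusted p = 0.383). Tpp1, the tripeptidyl peptidase whose loss causes a childhood neuronal storage disease, read 2.73, 2.62 and 2.98 in KO cells, against 2.51, 2.53 and 2.38 in WT cells. The genotypes did not overlap for Tpp1, but the difference of 0.30 ± 0.16 did not pass (adjusted p = 0.332).

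**Figure D3:**
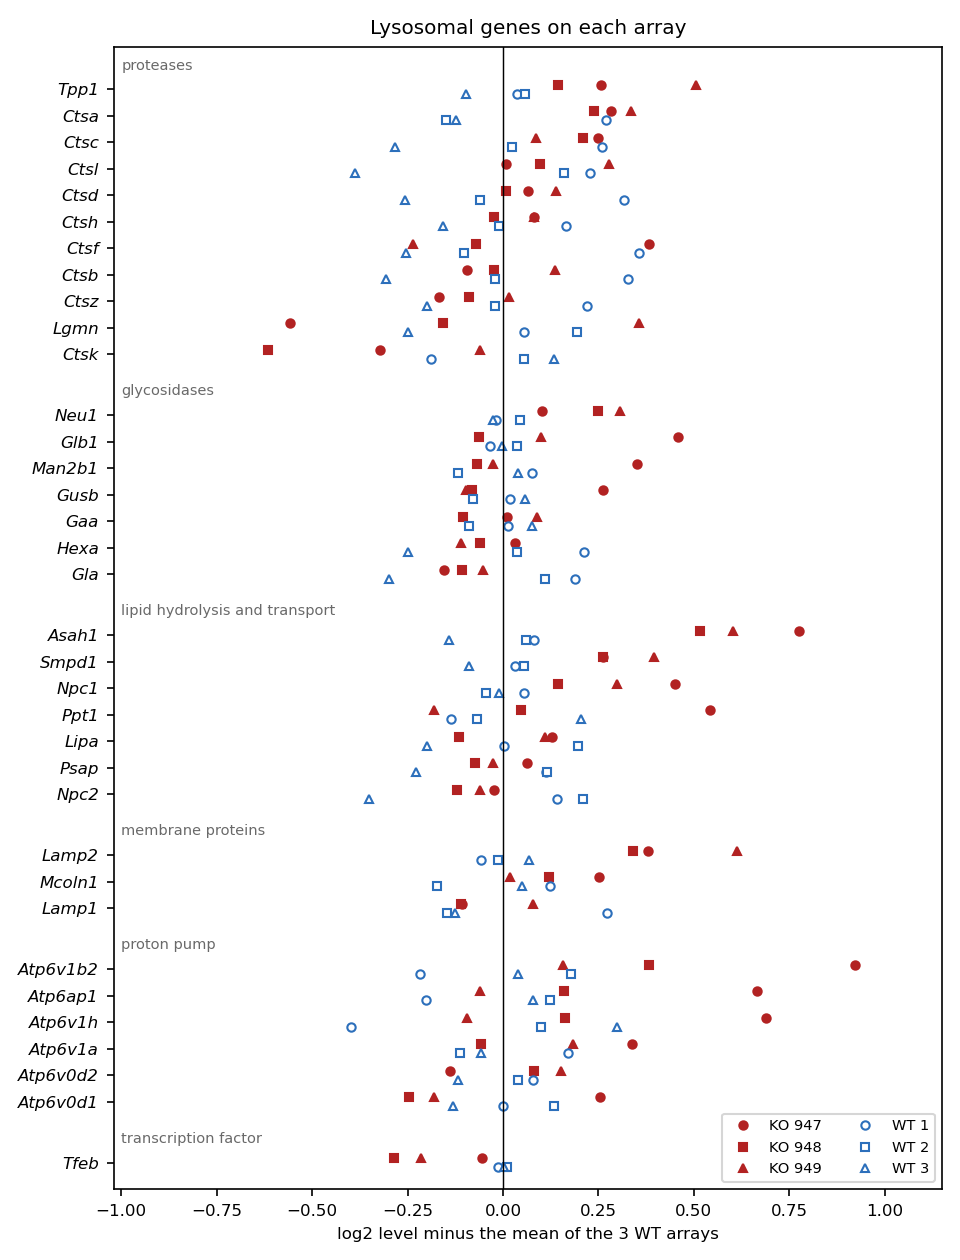
Log2 level of each lysosomal gene (rows, grouped by role) on each array, as its distance from the mean of the 3 WT arrays. Filled symbols are KO arrays and open symbols WT arrays, and KO 947 stands farthest right for Atp6v1b2, Atp6ap1 and Atp6v1h.

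None of the 7 glycosidase genes passed, and their median difference was 0.028. The smallest difference in the whole group was that of Gaa, the acid alpha-glucosidase that breaks down glycogen, which averaged 3.67 ± 0.10 in KO cells and 3.67 ± 0.08 in WT cells (SD, n = 3 each), with an interval of the difference from -0.33 to 0.33. Gusb, the beta-glucuronidase, differed by 0.028 and Man2b1, the lysosomal alpha-mannosidase, by 0.086. Hexa, the alpha subunit of the hexosaminidase that degrades ganglioside, differed by -0.046, and Gla, the alpha-galactosidase of globoside breakdown, by -0.10. Glb1, the beta-galactosidase, read 3.50, 2.98 and 3.14 in KO cells, against 3.01, 3.08 and 3.04 in WT cells, so KO 947 alone lay above the WT range by more than 0.1. Neu1, the lysosomal sialidase, read 4.55, 4.69 and 4.75 in KO cells, against 4.43, 4.49 and 4.42 in WT cells. Its groups did not overlap, and the difference of 0.22 ± 0.14 did not pass (adjusted p = 0.416).

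With 1 probe per gene, the largest difference of the 35 was in a gene of sphingolipid turnover. Asah1, the acid ceramidase that splits ceramide into sphingosine and fatty acid, read 4.41, 4.15 and 4.24 in KO 947, 948 and 949, against 3.72, 3.70 and 3.49 in WT 1, 2 and 3. Every KO array lay above every WT array. The difference of 0.63 ± 0.15 corresponds to 1.55-fold and did not pass the limma test (adjusted p = 0.0764, 95% interval 0.27 to 0.99). With scaling to the array median, which moves the median of all genes to 0.21, it passed (0.85, adjusted p = 0.0329), and with 1 array left out its adjusted p lay between 0.0848 and 0.190. A second Asah1 probe read 1.69, 1.07 and 1.01 in KO cells, against 0.64, 0.78 and 0.67 in WT cells, also without overlap. Its difference was 0.56 ± 0.22 (limma adjusted p = 0.256 over all probes, where the first probe had 0.127). Smpd1, the acid sphingomyelinase that produces ceramide, read 3.22, 3.22 and 3.35 in KO cells, against 2.99, 3.01 and 2.87 in WT cells (0.31 ± 0.14, adjusted p = 0.265). Npc1, the membrane protein that exports cholesterol from the lysosome, read 2.89, 2.59 and 2.74 in KO cells, against 2.49, 2.40 and 2.43 in WT cells (0.30 ± 0.15, adjusted p = 0.309). Neither Smpd1 nor Npc1 overlapped between genotypes.

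The remaining genes of this class showed overlapping groups. Npc2, the soluble cholesterol carrier that works with Npc1, differed by -0.068 ± 0.19, with 6.64, 6.55 and 6.61 in KO cells, against 6.81, 6.88 and 6.32 in WT cells. Lipa, the acid lipase, differed by 0.041 and Psap, the precursor of the saposins that present sphingolipids to their hydrolases, by -0.011. Ppt1, the palmitoyl thioesterase, differed by 0.14 ± 0.22, with KO 947 at 2.38 and the other arrays between 1.65 and 2.04. Of the 7 genes in this class none passed, and the median was 0.14. In 3 of the 7 every KO array lay above every WT array, where 13.4% of all genes did so.

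Of the 3 membrane protein genes, none passed, and their median difference was 0.13. Lamp2, a heavily glycosylated protein of the lysosomal membrane with a role in autophagy, read 5.57, 5.53 and 5.80 in KO 947, 948 and 949, against 5.14, 5.18 and 5.26 in WT 1, 2 and 3. The groups did not overlap, with a difference of 0.44 ± 0.15 (1.36-fold, 95% interval 0.10 to 0.79) that did not pass (adjusted p = 0.153). A probe designed on another Lamp2 transcript read 5.47, 5.29 and 5.53 in KO cells, against 5.21, 5.52 and 4.69 in WT cells, where the groups overlapped (0.29 ± 0.24). Lamp1, its paralog, differed by -0.046 ± 0.17, and Mcoln1, the channel that releases calcium and iron from lysosomes, by 0.13 ± 0.15. The difference between Lamp2 and Lamp1 was itself not tested.

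None of the 6 proton pump genes passed, 5 differences were above 0, and the median was 0.20. KO 947 was the highest array in 5 of the 6. Atp6v1b2, a subunit of the ATP-hydrolysing V1 sector, read 2.70, 2.17 and 1.94 in KO 947, 948 and 949, against 1.57, 1.96 and 1.82 in WT 1, 2 and 3 (0.49 ± 0.23, adjusted p = 0.300). Atp6v1h, the regulatory V1 subunit, read 2.80, 2.27 and 2.01 in KO cells, against 1.71, 2.21 and 2.41 in WT cells. The accessory subunit gene Atp6ap1 read 4.20, 3.69 and 3.47 in KO cells, against 3.33, 3.65 and 3.61 in WT cells. In these 3 genes KO 947 was the highest array, and without it the differences were 0.27, 0.034 and 0.051. Over the 6 genes the median without KO 947 was 0.057.

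The other 3 pump genes lay closer together. Atp6v1a, the catalytic V1 subunit, differed by 0.16 ± 0.17. Atp6v0d1, the widely expressed d subunit that links the V1 and membrane sectors, differed by -0.057 ± 0.18. Its isoform Atp6v0d2, known from osteoclasts and macrophages, read 6.54, 6.76 and 6.83 in KO cells, against 6.75, 6.71 and 6.56 in WT cells (0.031 ± 0.15). A dimmer Atp6v0d2 probe read 3.49, 3.26 and 3.32 in KO cells, against 2.75, 3.30 and 2.75 in WT cells, a difference of 0.42 ± 0.21 that did not pass either.

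Tfeb, the activator of the CLEAR network, was the 1 gene of the group whose KO arrays all lay below the WT arrays. It read 1.24, 1.01 and 1.08 in KO 947, 948 and 949, against 1.28, 1.31 and 1.30 in WT 1, 2 and 3. The difference of -0.19 ± 0.14 did not pass (adjusted p = 0.495), and with scaling to the array median it was 0.031. The genes with and without the E-box core in their promoter had median differences of 0.049 (12 genes, 7 above 0) and 0.063 (16 genes, 10 above 0).

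Arrays of the same genotype also differed among themselves. For every gene the deviation of each array from the mean of the 6 was taken, and its median over the 35 genes was 0.11, -0.037 and 0.059 on KO 947, 948 and 949, against 0.058, -0.064 and -0.16 on WT 1, 2 and 3. WT 3 was the lowest array for 16 of the 35 genes, and KO 947 the highest for 13. Proteases were shifted down on WT 3 (-0.26) and up on WT 1 (0.16), whereas the pump genes were shifted up on KO 947 (0.41). Over all genes tested the same median lay between -0.028 and 0.034 on every array. Over the brightest 20% of them it was 0.046, -0.019 and 0.048 on KO 947, 948 and 949. On WT 1, 2 and 3 it was -0.0011, -0.013 and -0.072 over those bright genes. Among these 3148 genes WT 3 was the lowest array for 861 and KO 947 the highest for 931. WT 3 is the female WT mouse and KO 947 a male, and no lysosomal gene passed the limma test of female against male with genotype in the model (0 of 35 also at an unadjusted p under 0.05, where 0.00635% of all genes passed and 2.84% had such a p). That difference had a median of -0.054, with 27 of 35 below 0. Over all genes tested its median was -0.020, with 8475 of 15736 below 0.

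**Figure D4:**
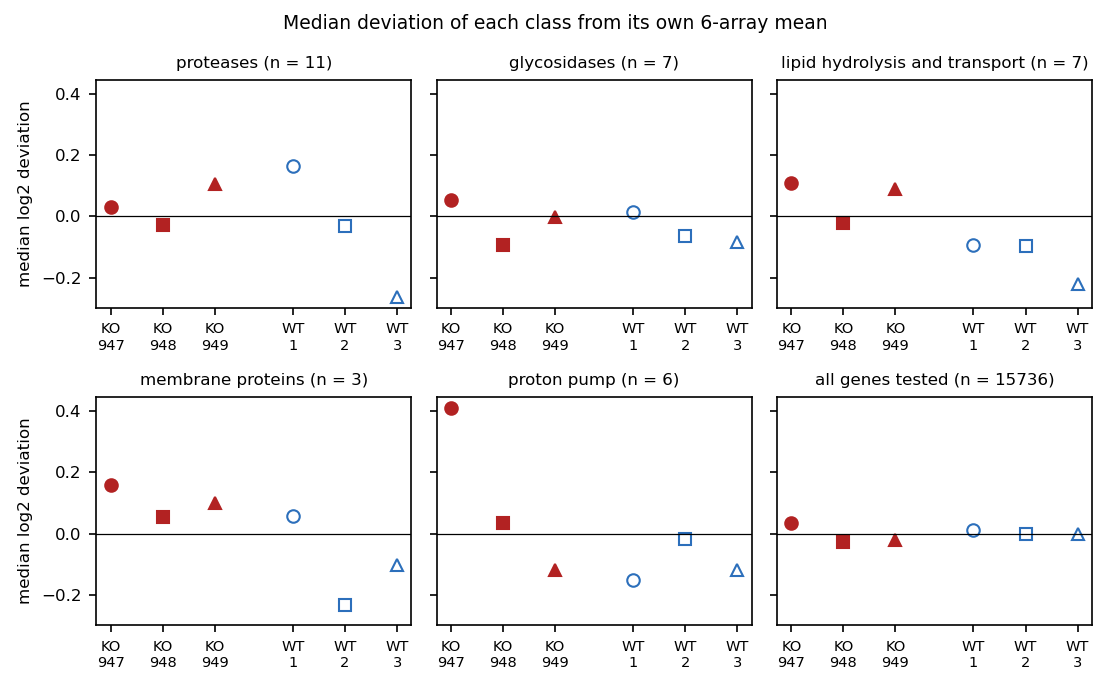
Median log2 deviation (y axis) of each class of lysosomal genes from the mean over all arrays, for KO 947, 948 and 949 (filled) and WT 1, 2 and 3 (open), with all genes tested in the last panel. The proteases are lowest on WT 3 (-0.26) and the pump genes highest on KO 947 (0.41).

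The slide can be told from the genotype only through KO 947, the 1 KO array that shared a slide with the WT arrays. With the slide as a fixed block, and equally within that slide, the median of the 35 genes was 0.25, with 26 above 0 and none past the threshold. Asah1 then differed by 0.78 (adjusted p = 0.138), Atp6v1b2 by 0.92 (adjusted p = 0.145) and Lamp2 by 0.38 (adjusted p = 0.371), and the pump genes had a median of 0.50. Lgmn stood at -0.56.

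Beyond these 35 genes, 130 further genes were measured, from lists drawn up for the lysosome, its sorting receptors, its regulators and the inhibitors of its proteases. A place in a list does not show that the product resides in the lysosome. In this set 1 rose and 4 fell by the limma test at an adjusted p under 0.05, where 1.14% of all genes rose and 2.27% fell, and the median difference was 0.069. Galns, a sulfatase of keratan and chondroitin sulfate breakdown, read 2.51, 2.49 and 2.70 in KO 947, 948 and 949, against 1.73, 1.74 and 1.69 in WT 1, 2 and 3. It rose 1.80-fold (0.85 ± 0.14, adjusted p = 0.0315). Plbd1, a phospholipase B-like protein, read 4.70, 4.55 and 4.56 in KO cells, against 5.65, 5.62 and 5.63 in WT cells, 2.04-fold lower (-1.03 ± 0.13, adjusted p = 0.0158). Smpdl3b, a relative of acid sphingomyelinase held at the membrane, read 2.25, 2.10 and 2.05 in KO cells, against 2.88, 2.92 and 2.93 in WT cells (-0.77 ± 0.14, adjusted p = 0.0387). KO and WT ranges were apart in all 3, which were named because they passed the test.

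The other 2 falls were in stefins, cytosolic inhibitors of cysteine cathepsins. Stfa1 read 1.95, 1.75 and 1.40 in KO 947, 948 and 949, against 3.15, 3.19 and 3.39 in WT 1, 2 and 3, 2.91-fold lower in KO (-1.54 ± 0.19, adjusted p = 0.0134). Stfa2 read 1.20, 1.50 and 1.42 in KO cells, against 2.80, 2.99 and 3.71 in WT cells, 3.47-fold lower (-1.80 ± 0.26, adjusted p = 0.0216). Stfa2l1 (-1.09 ± 0.24, adjusted p = 0.0608) and Stfa3 (-1.59 ± 0.35, adjusted p = 0.0624), named after their values were seen, also did not overlap between genotypes but did not pass. The mouse stefin A genes are close copies of each other, and whether their probes cross-hybridise was not tested. Granulocyte markers stood beside them with a summed level of 180 to 232 in KO against 266 to 352 in WT, 8 of 9 measured lower and 1 past the test, and their part in the stefin values was not tested. The secreted and cytosolic inhibitors Cst3 and Cstb differed by -0.098 ± 0.16 and -0.045 ± 0.14. Cst6 was lower in KO without overlap (-0.57 ± 0.19, limma adjusted p = 0.150) and Cst7 lower with overlap (-0.96 ± 0.42, limma adjusted p = 0.265). Serpinb1a, an inhibitor of neutrophil serine proteases, differed by 1.10 ± 0.26 (adjusted p = 0.0783). Cst3, Cstb, Cst6, Cst7 and Serpinb1a were likewise named after their values were seen. Of the 10 genes in this inhibitor list 8 were lower and 2 higher in KO, with a median of -0.77. The KO arrays all lay below the WT arrays in 5 and above in 1, against 13.4% of all genes in each direction.

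**Figure D5:**
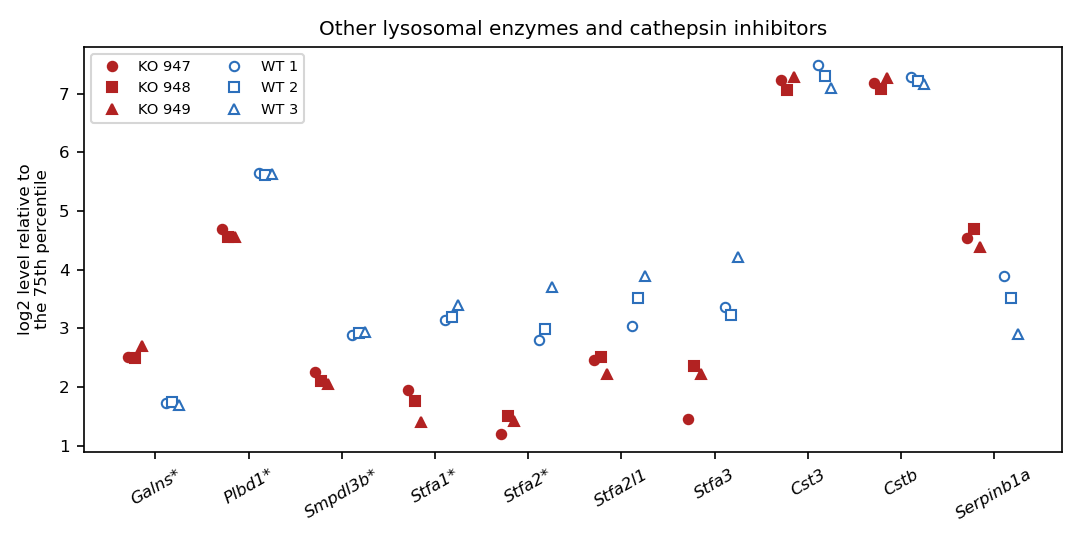
Log2 level against the array's 75th percentile (y axis) of lysosomal genes outside the 35 and of cathepsin inhibitors, for each KO (filled) and WT (open) array, with an asterisk for an adjusted p under 0.05. The KO arrays lie below the WT arrays for Plbd1, Smpdl3b and the 4 stefins and above them for Galns and Serpinb1a. Cst6, Cst7 and Serpinb6a of the inhibitor list are not drawn.

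The 5 calls outside the 35 genes were lost in some fits. None of them passed when the slide was a fixed block, with differences of 0.79 for Galns, -0.94 for Plbd1, -0.66 for Smpdl3b, -1.29 for Stfa1 and -1.97 for Stfa2 (adjusted p = 0.125, 0.0769, 0.151, 0.0737 and 0.0879). The call of Stfa1 was lost without KO 948, WT 1 or WT 2 (adjusted p = 0.0554, 0.0536 and 0.0545). Those of Plbd1 and Stfa2 were lost without KO 948, KO 949, WT 1 or WT 2, with adjusted p up to 0.0771 and 0.0681. Galns and Smpdl3b passed without KO 947 and in no other fit that left out 1 array, with adjusted p up to 0.111 and 0.145.

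In the other lists of the set no gene passed. Among proteases, Ctsw, a cathepsin of lymphocytes, differed by -0.57 (adjusted p = 0.0971), and Pgpep1, a pyroglutamyl peptidase, by 0.53. Another pair of pump genes had low p-values, the accessory subunit Atp6ap2 at 0.52 ± 0.16 (adjusted p = 0.130) and the V1 subunit Atp6v1c1 at 0.42 ± 0.14 (adjusted p = 0.155). For both every KO array lay above every WT array, which adds little since they were named for their low p. In their list 3 of 18 genes did so, and 13.4% of all genes. Of the membrane proteins, the lysosomal potassium channel Tmem175 differed by 0.44 (adjusted p = 0.127) and Mcoln2 by 0.31. Sumf1, the enzyme that activates sulfatases such as Galns, differed by 0.47 (adjusted p = 0.180), and the sorting adaptor Gga2 by -0.48. Tfec, a factor of the family of Tfeb, differed by 0.40 and Rptor, a subunit of the mTORC1 kinase complex that restrains TFEB, by -0.35 (adjusted p = 0.314 and 0.279). Among nucleases, Pld3 differed by 0.24 and Dnase2a by -0.33.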

How the data were processed

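Spot intensity values in the deposited scanner files came from Agilent Feature Extraction. Its version is 10.7.3.1 in the file headers, whereas the submitters' processing notes give 9.1. Probes were designed on mm9. The deposited processed signal was background-subtracted and detrended within each array, with no scaling between arrays. A further deposited table gives log2 values of 3215 probes, each centred on its median, with the scaling before that unknown. Column medians were -0.10, -0.13 and -0.13 for KO 947, 948 and 949, and 0.14, 0.11 and 0.11 for WT 1, 2 and 3. All its probes separate the genotypes, so passing there is no evidence. It holds 5 of the 35 genes and served as an alternative.

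Probes were named through transcript accessions and RefSeq genes (GRCm38.p6), which matched 26413 of 55681. Signals were taken as log2 minus the array's log2 75th percentile. Outlier spots (0.196% to 0.386%) were dropped, and a probe was kept where at least 3 of 6 arrays measured it well above background. Genotypes were compared by limma 3.58.1 (R 4.3.3), and two-sided p-values were adjusted by Benjamini-Hochberg across 15736 genes. Values of second probes come from the same fit over all probes. The fit was tested on simulated data. Alternatives changed the scaling, background correction, filters, probe choice, slide or sex terms, array weights, threshold and arrays included. The normexp background correction was run on median spot signals. Summed marker levels are linear signals in units of the 75th percentile. Genes named outside the 35 were those past the threshold in their list, or the pair with the lowest p where none was. Exceptions are the cathepsin and protease inhibitors marked in the text as chosen after their values were seen. The genes and lists were chosen with earlier results of these data known. The number of arrays limits the precision.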

Additional observations from a re-analysis of the deposited data

How the results depend on the processing

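Among the 35 genes Asah1 alone passed with scaling to the array median, eBayes with trend and robust, array weights and a threshold of 0.1 (1 of 35 each). In the authors' table all 5 of the genes it holds passed, and it holds only probes that separate the genotypes. No gene of the 35 passed in the other alternatives. The median difference was 0.29 with scaling to the array median, where all genes tested had a median of 0.21 so that the shift between them stayed at 0.078, 0.25 with the slide as a fixed block or within the slide of both genotypes, -0.025 with array weights and 0.32 in the authors' table. Leaving out 1 array gave medians from 0.034 to 0.13 and 0 calls each time. Over all alternatives 68 of 740 values of single genes moved by more than the spread between replicates. Of these, 24 came with scaling to the array median. A further 16 came with the slide as a fixed block, and 16 within the slide of both genotypes, which rests on the same contrast. Differences near 0 changed sign in some fits, such as that of Psap in 9 and that of Ctsb in 8 of 21.

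The 5 calls among further lysosomal genes became 3 with no filter on dim probes, the slide as a random block or sex as a covariate, 0 with the slide as a fixed block, within the slide of both genotypes or on arrays labelled male only, 9 with trend and robust or a threshold of 0.1, 21 with array weights and 16 in the authors' table. Leaving out 1 array gave 0 to 7. Scaling to the array median gave 4 higher and 3 lower in place of 1 and 4. None of the 35 genes passed the test of sex under any alternative run. No paired analysis was possible because the genotypes share no replicate numbers. The cause of these changes was not tested.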
